A study of Mus musculus with 8 samples.

Results

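The genes described were the T cell checkpoint and costimulatory receptors *Pdcd1* (PD-1), *Ctla4*, *Lag3*, *Tigit*, *Havcr2* (TIM-3), *Icos*, *Tnfrsf4* (OX40), *Tnfrsf18* (GITR) and *Cd28*, and the PD-1 ligand *Cd274* (PD-L1). They were taken by symbol from a fixed list that used no measured value, as 10 of the 32285 genes in the count matrices, and all 10 were found. A T cell that meets its antigen needs a further signal, which CD28 gives when it binds CD80 or CD86 on the presenting cell. ICOS, OX40 and GITR add to that signal later, whereas CTLA-4 competes with CD28 for the same ligands, and PD-1, LAG-3, TIGIT and TIM-3 dampen the response. Regulatory T cells, which carry the transcription factor Foxp3, are known for high CTLA-4, OX40, GITR and ICOS, and several of these receptors are also found on natural killer (NK) cells and on innate lymphoid cells.

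CD45.2-positive cells were sorted from the brains of perfused 16-week-old C57BL/6J (WT) mice and of *App* NL-G-F mice, which carry humanized amyloid-β with the Swedish, Arctic and Iberian mutations knocked into the endogenous *App* gene. Mice of both sexes received plain water (control), 2% DSS for 1 week (acute colitis), 3 cycles of 2% DSS and water of 5 days each (chronic colitis), or ovalbumin with alum by injection followed by oral ovalbumin (food allergy). Each genotype and treatment was 1 library, 8 in all, made with the 10x Genomics 5′ kit, so that a library and its condition cannot be told apart. The mice within a library were marked with hashtag antibodies, which gave 30 hashtag groups, but nothing ties a hashtag to a named mouse, and p-values below measure the spread between these hashtag groups only. For chronic colitis of *App* NL-G-F mice the study states fewer mice than there are hashtag groups, so some of its groups may share an animal and p-values that rest on them may be too small. Blood leukocytes had been stained in the vessels with anti-CD45 shortly before perfusion, but the label cannot be read from the counts, so cells inside vessels are not separated from cells of the tissue.

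The 10 genes lie on 6 chromosomes (GRCm38, GENCODE vM21), and 5 of them form 2 neighbourhoods. *Cd28* (chromosome 1, 60716800 to 60773359), *Ctla4* (60887000 to 60915832) and *Icos* (60977927 to 61000320) follow each other on the plus strand, 113640 and 62094 bases apart. *Tnfrsf4* (chromosome 4, 156013843 to 156016612) and *Tnfrsf18* (156026164 to 156028895) are 9551 bases apart on the plus strand. *Pdcd1* is on the minus strand of chromosome 1 (94038305 to 94052553), *Lag3* on the minus strand of chromosome 6 (124904361 to 124911705), *Havcr2* on the plus strand of chromosome 11 (46454935 to 46481255), *Tigit* on the minus strand of chromosome 16 (43648867 to 43664146) and *Cd274* on the plus strand of chromosome 19 (29367455 to 29388095).

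RefSeq promoter entries were found for 7 of the 10 genes (not for *Lag3*, *Icos* and *Cd28*). The 250 bases before the start are shown for the inhibitory receptors *Pdcd1* (chr1:94052554-94052803, minus strand), *Ctla4* (chr1:60908775-60909024, plus strand) and *Tigit* (chr16:43664185-43664434, minus strand), on which the comparisons below turn, in build GRCm38.p6 and read 5′ to 3′. RefSeq starts differ from GENCODE starts, and the *Ctla4* window lies within the gene as GENCODE draws it. Capitals mark the core letters GGAAA of the activation factor NFAT, or TTTCC where they lie on the other strand.
Pdcd1: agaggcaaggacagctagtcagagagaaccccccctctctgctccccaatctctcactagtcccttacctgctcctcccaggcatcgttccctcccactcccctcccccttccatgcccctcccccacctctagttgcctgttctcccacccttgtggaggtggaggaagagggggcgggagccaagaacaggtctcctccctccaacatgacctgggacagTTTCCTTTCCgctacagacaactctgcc
Ctla4: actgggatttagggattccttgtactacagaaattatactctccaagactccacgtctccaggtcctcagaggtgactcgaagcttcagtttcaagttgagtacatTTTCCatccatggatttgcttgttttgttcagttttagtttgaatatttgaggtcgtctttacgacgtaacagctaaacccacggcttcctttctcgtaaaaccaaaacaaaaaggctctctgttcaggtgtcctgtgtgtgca
Tigit: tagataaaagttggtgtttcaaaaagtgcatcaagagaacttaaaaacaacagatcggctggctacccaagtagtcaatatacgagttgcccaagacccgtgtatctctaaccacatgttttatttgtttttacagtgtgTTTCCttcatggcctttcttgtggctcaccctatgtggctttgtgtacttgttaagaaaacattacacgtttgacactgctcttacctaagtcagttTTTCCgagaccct
The NFAT core occurred in 2, 1 and 2 places of these windows, and in 55.6% of 32851 promoter windows of the same length. The AP-1 letters TGANTCA, read on both strands, were in none of these 3 and in 6.75% of all windows. A match is a description of the letters and not a site of binding.

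In all, 50087 cells were kept, 4877 to 7199 per library, with median depths of 2782 to 4130 UMIs (unique molecular identifiers, 1 per captured transcript), and 1485 cell barcodes occurred in more than 1 library. Cells were clustered without the 10 genes and without the ligand, receptor and signalling lists used below, and clusters were grouped into gates by marker genes. The CD4 T gate held 4763 cells (85.8% with a *Cd3e* UMI, 26.1% with a *Cd4* UMI), the CD8 T gate 3464 (90.6% *Cd8a*), the γδ T gate 1717 (56.4% *Trdc*), the ILC2 gate 4549 (77.1% *Gata3*, 59.9% *Il1rl1*, 4.0% *Cd3e*), the NK gate 3088 (85.5% *Ncr1*) and the myeloid gate 17072. No cluster of regulatory T cells was found, and the 292 cells of the CD4 T cluster with a *Foxp3* UMI, 11 to 51 per library, formed the Foxp3-positive T gate and are not in the CD4 T gate. The CD4 T gate was not pure: *Cd8a* was found in 9.53%, *Klrb1c* in 14.05% and *Trdc* in 3.99% of its cells. In the Foxp3-positive T gate these shares were 1.03%, 1.37% and 0.685%. The part of such cells in the comparison across the *Foxp3* split below was not tested. Levels are in CPM, the UMIs of a gene scaled to all UMIs of its gate, and intervals, where given, cover counting error only. Gates were not tested against each other, since they come from clusters of the same cells.

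Free RNA and doublets can give UMIs of these genes in cells that lack them, and B cells were taken as the reference. In the 7079 B cells (median 2403 UMIs) a UMI was found in 1.36% of cells for *Pdcd1*, 1.82% for *Ctla4*, 1.33% for *Tigit*, 0.961% for *Icos*, 1.14% for *Tnfrsf4* and 1.63% for *Cd28*. *Tnfrsf18* was found in 5.68% and *Cd274* in 4.08% of B cells. *Lag3* (0.367%) and *Havcr2* (0.0989%) were the lowest. Shares at or below these values in the other lymphocyte gates (median depths 2314 to 3469 UMIs) were read as background. Whether part of the B cell UMIs was expression by the B cells themselves was not tested.

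*Cd28*, the primary costimulatory receptor, was a gene of the αβ T cell gates. Its mean level over the 8 libraries was 278.5 ± 93.4 CPM (SD, n = 8) in Foxp3-positive T cells, 219.9 ± 43.1 in CD4 T cells and 163.9 ± 32.5 in CD8 T cells, with overlapping ranges between neighbours. NK cells followed at 47.7 ± 10.4 CPM and did not overlap with CD8 T cells in any library. In γδ T cells (16.8 CPM) and ILC2 (7.92 CPM) the share of cells with a *Cd28* UMI was 3.96% and 1.56%, the latter at the B cell share. *Icos*, the CD28-family receptor that follows activation, had another distribution. It was highest in Foxp3-positive T cells (lowest, median and highest library 121.9, 393.9 and 590.7 CPM), then in ILC2 (180.7, 241.1 and 414.4) and γδ T cells (199.7, 227.2 and 331.4), and these 3 gates overlapped. CD4 T cells (103.5 to 174.2 CPM) lay below every γδ T library. CD8 T cells (60.5 ± 23.1 CPM) and NK cells (37.3 ± 5.74) came next. A UMI of *Icos* was found in 40.8% of ILC2, 49.7% of γδ T cells and 43.8% of Foxp3-positive T cells, although the first 2 had little *Cd28*.

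Both TNF-receptor family members were led by Foxp3-positive T cells, and among the lymphocyte gates only *Tnfrsf18* was also high outside the T cells. *Tnfrsf4*, whose ligand OX40L is carried by antigen-presenting cells, had 414.1, 741.0 and 1508 CPM in the lowest, median and highest library of Foxp3-positive T cells, against 78.3, 124.0 and 168.1 in CD4 T cells. No library of either gate overlapped with the other gate, and CD4 T cells in turn did not overlap with the next gate, ILC2 (24.8 ± 12.9 CPM). CD8 T cells had 17.4 ± 13.5 CPM, and γδ T and NK cells 5.22 and 5.10. *Tnfrsf18*, known on regulatory T cells and on ILC2, was at 571.4 ± 135 CPM in Foxp3-positive T cells and 536.1 ± 197 CPM in ILC2, with a UMI in 66.1% and 68.3% of cells. These gates overlapped with each other, and their lowest libraries (404.2 and 343.4 CPM) lay above the highest library of NK cells (245.1 ± 34.0 CPM, highest 290.5) and of CD4 T cells (232.0 ± 30.5 CPM, highest 275.7). CD8 T cells (116.7 ± 25.1 CPM) and γδ T cells (66.2 ± 11.5 CPM) were the lowest of the T cell, ILC2 and NK gates.

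*Pdcd1*, which encodes the inhibitory receptor PD-1, was highest in γδ T cells and spread over all T cell, ILC2 and NK gates, with B cells as the reference. The mean was 543.5 ± 314.3 CPM in γδ T cells, where 55.1% of cells had a UMI, 316.8 ± 146.6 in Foxp3-positive T cells, 270.5 ± 62.8 in CD8 T cells, 171.6 ± 113.0 in ILC2, 147.6 ± 67.0 in CD4 T cells and 117.4 ± 46.8 in NK cells. Each of these gates overlapped with the next, and all lay above myeloid cells (7.52 ± 3.33 CPM). In γδ T cells and ILC2 the libraries differed by treatment group. In γδ T cells *Pdcd1* was at 1161 CPM (95% interval 1101 to 1224) in WT control and 898.7 (833.6 to 967.4) in *App* NL-G-F control, and between 303.9 and 458.6 in the 6 treated libraries. In ILC2 it was at 365.2 (338.9 to 393.0) in WT control and 322.6 (295.2 to 351.8) in *App* NL-G-F control, against 73.5 to 173.2 in the treated libraries. The control libraries were the highest in both gates.

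*Ctla4*, the competitor of CD28, marked the Foxp3-positive T cells. The lowest, median and highest library had 272.6, 523.1 and 868.6 CPM there and 47.0, 62.0 and 120.7 CPM in CD4 T cells, without overlap. CD8 T cells were near CD4 T cells (50.0 ± 23.6 CPM), and γδ T cells, NK cells and ILC2 lay between 10.0 and 13.5 CPM. *Tigit*, which shares the ligand CD155 with the activating receptor CD226, was at 355.5 ± 135.1 CPM in Foxp3-positive T cells, 230.1 ± 61.2 in NK cells, 227.2 ± 51.5 in CD8 T cells and 129.5 ± 37.2 in CD4 T cells. NK and CD8 T cells could not be ordered, as NK cells were the higher in 4 of 8 libraries. A break followed, with ILC2 at 13.9 and γδ T cells at 10.1 CPM. These 2 gates had almost no *Tigit* beside their *Icos* and *Pdcd1*, whereas Foxp3-positive T cells had much of all 3 genes. *Lag3*, which binds MHC class II, was highest in CD8 T cells (58.8 ± 26.2 CPM, 12.9% of cells), followed by NK cells (29.0 ± 7.75) and Foxp3-positive T cells (27.9 ± 20.8). In ILC2 it was at 0.813 CPM and at 0 in the libraries of WT and *App* NL-G-F food allergy, where a count of 0 allows up to 1.68 and 1.92 CPM. *Havcr2* was at 12.5 ± 3.35 CPM in CD8 T cells, 10.3 ± 9.50 in Foxp3-positive T cells and 2.23 or less in the other lymphocyte gates.

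**Figure D1:**
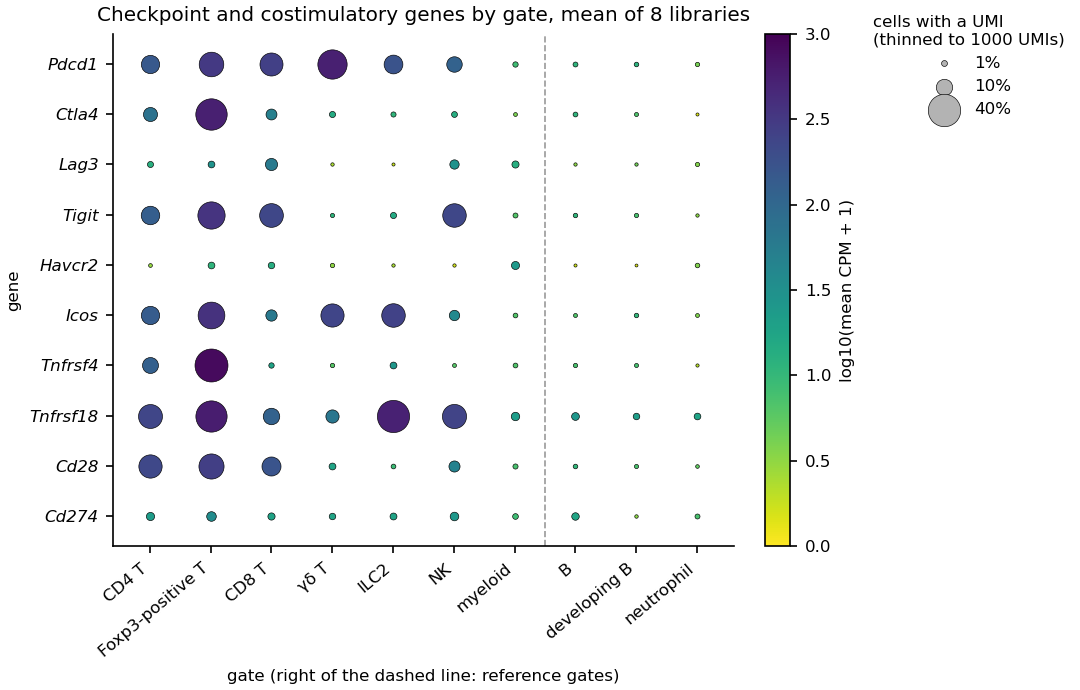
Each row is a gene and each column a gate; colour gives log10 of the mean CPM plus 1 over 8 libraries, and the area of a point the share of cells with a UMI after each cell was thinned to 1000 UMIs. The Foxp3-positive T column is dark for most receptors, *Pdcd1* is darkest in γδ T cells, *Tnfrsf18* and *Icos* are dark in ILC2, and the 3 reference gates right of the dashed line are pale.

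Myeloid cells as a whole were low for 9 of the 10 genes and led for *Havcr2* (23.6 ± 12.8 CPM, 10.3 to 52.3), but single myeloid types were not low. *Havcr2* was at 117.5 CPM in conventional dendritic cells (DC) of type 1, with a UMI in 55.6% of 1827 cells, and at 43.8 CPM in macrophages. *Lag3* was at 102.9 CPM in basophils (35.2% of 446 cells), against 52.8 CPM in CD8 T cells pooled in the same way. A cluster of 2068 cells led by *Siglech*, *Cox6a2*, *Cd209a* and *Clec10a* mixed plasmacytoid DC with conventional DC of type 2, with *Lag3* at 75.5 CPM (28.2% of cells). Finer clustering (resolution 1.0) divided them, and *Lag3* was at 161.4 CPM in the 865 plasmacytoid DC (52.1% of cells, 95% interval 48.8 to 55.5) and 29.2 CPM in the 1179 conventional DC of type 2 (11.6%, 9.85 to 13.6). *Cd274* was below 36 CPM in every lymphocyte gate, the highest being Foxp3-positive T cells at 35.1 ± 17.0. It reached 177.2 CPM in migratory DC (51.5% of 132 cells, 95% interval 42.7 to 60.3) and 130.8 CPM in mast cells (28.6% of 308 cells). Migratory DC, which carry antigen to lymph nodes, also had *Tnfrsf4* at 280.8 CPM (56.8% of cells) and *Tnfrsf18* at 110.9 CPM. These values pool the cells of all libraries.

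Single cells differed in how many of the 10 genes they showed. Among Foxp3-positive T cells, 111 of 292 (38.0%) had UMIs of 5 or more of the 10 genes, against 299 of 4763 CD4 T cells (6.28%) and 4.97% of CD8 T cells. After each cell was thinned to 1000 UMIs, these shares were 8.21% (23 of 280 cells), 1.19% (54 of 4534) and 0.263%. No member was found in 11.8% of thinned Foxp3-positive T cells and 41.7% of thinned CD4 T cells. Inhibitory and costimulatory genes were found together more often than their separate shares within each library would give. In thinned CD4 T cells, *Pdcd1* and *Ctla4* met in 121 cells where 43.5 would be given by the separate shares (2.78 times), *Pdcd1* and *Tnfrsf4* in 154 against 57.1 (2.70 times) and *Pdcd1* and *Tigit* in 190 against 76.7 (2.48 times). In CD8 T cells *Pdcd1* met *Tigit* in 229 cells against 146.5 (1.56 times) and *Lag3* in 69 against 37.2 (1.86 times). In Foxp3-positive T cells, where each gene was frequent, the ratio was 1.38 for *Pdcd1* and *Ctla4* and 1.10 for *Ctla4* and *Tnfrsf4*. These counts are a description, since cells are not replicates and share library, hashtag group and depth.

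**Figure D2:**
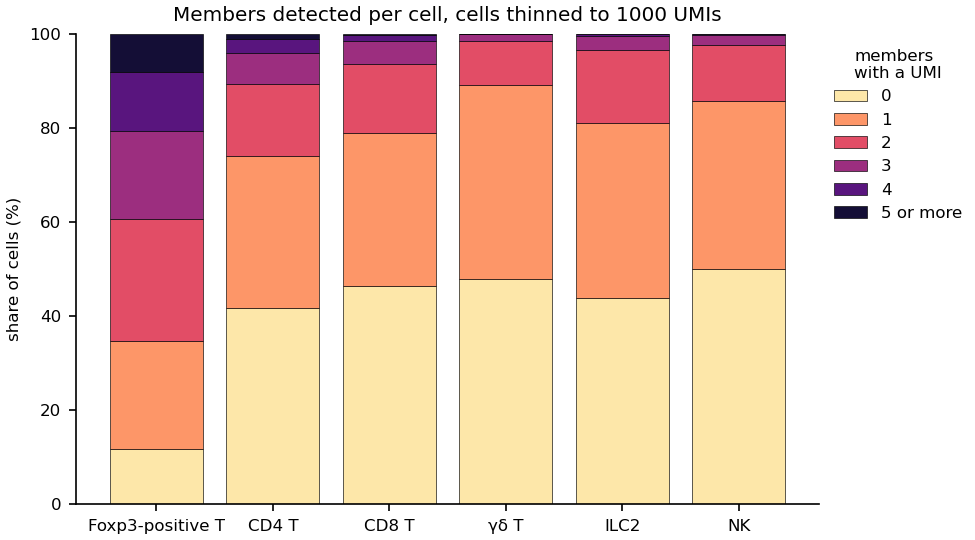
Bars give, for 6 gates, the percent of cells with UMIs of 0, 1, 2, 3, 4 or 5 and more of the 10 genes after thinning to 1000 UMIs. The share with none is 11.8% in Foxp3-positive T cells and 41.7% in CD4 T cells.

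The split by *Foxp3* used no other gene, so the members could be tested across it within each hashtag group. UMIs were summed in 22 hashtag groups with at least 5 cells of each kind, 253 Foxp3-positive against 3910 Foxp3-negative cells in all, and compared by edgeR's quasi-likelihood test with the hashtag group as a block. Of 2448 genes tested, 15.7% were called at an adjusted p below 0.05, and 6.66% were called higher. Of the 7 members that passed the filter on low counts, 6 were called and all 6 were higher in Foxp3-positive cells. The filter took both kinds of cell together, so a gene could pass it through its level in Foxp3-positive cells. *Icos*, *Tnfrsf18* and *Cd28* were also high enough in Foxp3-negative cells. *Ctla4* and *Tnfrsf4*, low in many Foxp3-negative groups, were not, so the count of 6 of 7 leans towards genes high in Foxp3-positive cells.

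*Ctla4* had a lowest, median and highest value of 65.2, 385.2 and 1330.0 CPM in Foxp3-positive cells and 12.8, 64.0 and 147.9 CPM in Foxp3-negative cells. It was higher in 22 of 22 groups, 6.75-fold (log2 fold change 2.76, SE 0.17, adjusted p = 5.95e-20, edgeR with Benjamini-Hochberg adjustment). *Tnfrsf4* had 44.97, 757.8 and 2085 CPM against 48.7, 127.2 and 275.0 CPM. It was higher in 21 of 22 groups, 5.75-fold (log2 2.52, SE 0.20, edgeR adjusted p = 1.93e-15). The remaining receptors that rose did so by less. *Tigit* rose 2.75-fold (log2 1.46, SE 0.16, edgeR adjusted p = 8.94e-11) and was higher in 22 of 22 groups, with medians of 326.8 against 104.5 CPM. *Icos* rose 2.47-fold (log2 1.3, SE 0.17, edgeR adjusted p = 1.32e-08), in 20 of 22 groups, with medians of 297.5 against 122.2 CPM. *Tnfrsf18* rose 2.26-fold (log2 1.18, SE 0.12, edgeR adjusted p = 3.80e-12), in 22 of 22 groups, with medians of 509.1 against 225.9 CPM.

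*Pdcd1* rose least, 1.69-fold (log2 0.75, SE 0.19, edgeR adjusted p = 0.00197), in 16 of 22 groups. Its values were 0, 251.4 and 764.4 CPM against 29.99, 131.1 and 391.5 CPM, and 2 groups were at 0 in Foxp3-positive cells. This call was lost without the block (log2 0.72), in thinned cells (0.57), with no filter on low counts (0.32) and with gates set from marker UMIs of each cell (0.08), where *Icos* was also lost (0.04). *Cd28*, the receptor whose ligands CTLA-4 shares, was at a median of 241.5 against 220.4 CPM, higher in 11 of 22 groups, and its difference of 0.09 on the log2 scale (SE 0.15, edgeR adjusted p = 0.794) was within the spread. *Lag3*, *Havcr2* and *Cd274* did not pass the filter and were at 0 in Foxp3-positive cells of 14, 15 and 10 of 22 groups. The high and the low immediate-early set of hashtag groups, described further on, were each fitted alone with the same kind of filter. In each, 6 of 7 members were called, all higher. Of all genes, 11.4% were called (4.14% higher) in the high and 6.49% (3.51% higher) in the low set.

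**Figure D3:**
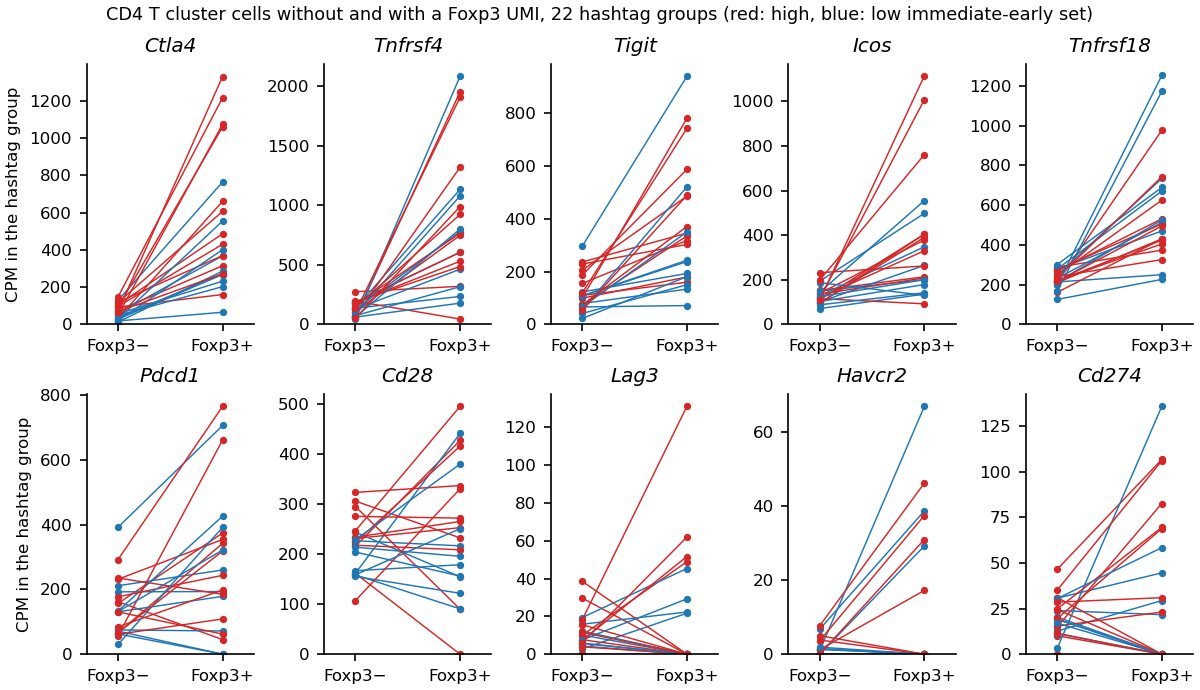
Each line joins the Foxp3-negative (Foxp3−) and Foxp3-positive (Foxp3+) cells of 1 hashtag group, in CPM on a linear axis with its own scale per gene; red and blue are the high and low immediate-early sets. All 22 lines rise for *Ctla4*, *Tigit* and *Tnfrsf18*, 16 rise for *Pdcd1* and 11 for *Cd28*.

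Other genes of the pathway moved in both directions across the same split. Among the regulatory T cell genes, *Ikzf2* (log2 2.32), *Izumo1r* (1.93) and the IL-2 receptor chain *Il2ra* (1.73) rose. *Foxp3* defines the split, so its own rise was fixed in advance. The remaining genes of this list of 10 did not pass the same filter, which favours genes high in Foxp3-positive cells, so no share is drawn from the list. Of 7 other receptors tested, *Cd5*, a brake on T cell receptor signalling (log2 0.74), and *Cd27*, a costimulatory receptor (0.64), rose. *Cd40lg*, with which helper T cells activate B cells, fell by 2.24 on the log2 scale (edgeR adjusted p = 5.25e-10), and *Cd226*, the activating partner of TIGIT, had a log2 change of -0.73 (edgeR adjusted p = 0.00438). Of 8 signalling genes tested, *Batf* (log2 1.12) and *Traf1* (0.71) rose and *Tcf7*, a factor of naive and memory T cells, fell by 1.44 on the log2 scale. Of 8 immediate-early genes tested, 4 rose: *Nr4a1* (log2 1.91), *Dusp1* (1.01), *Zfp36* (0.86) and *Junb* (0.51). Their part in the rise of the receptors was not tested.

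The question of whether intestinal inflammation or food allergy went with a change of the receptors was put to the hashtag groups with at least 20 cells of a gate. UMIs were summed per hashtag group and gate, each treatment was compared with the control of its genotype, and the 3 treatments of a genotype share the same control groups. The members that passed the filter on low counts numbered 9 in CD4 T cells (not *Havcr2*), 8 in CD8 T cells (not *Havcr2* and *Cd274*), 6 in ILC2 (not *Ctla4*, *Lag3*, *Havcr2* and *Cd28*), 7 in NK cells (not *Ctla4*, *Havcr2* and *Tnfrsf4*), 3 in γδ T cells (*Pdcd1*, *Icos* and *Tnfrsf18*) and 10 in myeloid cells. Over 6 contrasts and 6 gates this gave 258 member tests, of which 2 were called by edgeR's quasi-likelihood test, both lower; over all genes 0.906% of tests were called and 0.0935% were called lower. At an unadjusted p below 0.05 there were 26. DESeq2 also called 2.

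Both calls were *Pdcd1* in γδ T cells of WT mice, a gate in which 0.257% of all tests were called lower. The 3 WT control groups had 304.4, 1235 and 1560 CPM, the chronic colitis groups 287.5, 373.4 and 274.8 CPM and the food allergy groups 269.4, 407.7 and 232.8 CPM. Of the 3 control groups, 2 were far above every treated group and 1 lay among them. *Pdcd1* fell by 1.80 on the log2 scale in chronic colitis (SE 0.44, edgeR adjusted p = 0.0187) and by 1.81 in food allergy (SE 0.45, edgeR adjusted p = 0.0290). In acute colitis, with 298.1 and 432.6 CPM, the change was -1.56 and did not pass (edgeR adjusted p = 0.114). It did pass with the immediate-early set, described below, as a term in the fit (-1.66, edgeR adjusted p = 0.0255), which called 3 member tests, all *Pdcd1* in γδ T cells of WT mice. In *App* NL-G-F mice the changes were -0.77, -1.29 and -1.09 in acute colitis, chronic colitis and food allergy, none past the threshold (edgeR adjusted p = 0.840, 0.267 and 0.458). Both calls were lost without WT control hashtag 6 (-1.71 and -1.72) and without hashtag 7 (-1.42 and -1.44). A call was also lost without any 1 of the treated groups it rests on, and 4 member tests were called without WT control hashtag 4, the lowest of the control groups.

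Among the other lists, 5 tests were called lower in γδ T cells of WT mice: the receptors *Cd160* (log2 -4.22 in acute and -2.95 in chronic colitis) and *Tnfrsf9* (-7.49 and -4.48), and the signalling subunit *Pik3r1* (-0.93 in chronic colitis). The MHC class II gene *H2-Aa* was higher in ILC2 of WT chronic colitis (log2 3.03). No regulatory T cell gene and no immediate-early gene was called by edgeR, of 120 and 354 tests, of which 5 and 7 had an unadjusted p below 0.05.

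The hashtag groups also divided in a way that no genotype or treatment label gives. Immediate-early genes (*Fos*, *Jun*, *Egr1* and others, which respond within minutes to stimulation or to handling) summed to 620.1 to 1668 CPM in the T cells of 14 hashtag groups and to 3215 to 6334 CPM in 16 groups, with a gap of 1.93-fold between. Both kinds occurred in every library, and they followed the hashtag numbers. In control and chronic colitis of both genotypes, hashtags 4 and 5 were low and hashtags 6 and 7 high. In acute colitis and food allergy, hashtags 4 and 5 were high and the others low. Within a set, acute colitis and food allergy were therefore compared with controls of other hashtag numbers, so that hashtag number and treatment cannot be told apart there. Chronic colitis was compared within the same numbers. These low and high sets were found in the data, are not groups of the study and were not tested against each other, but each contrast was repeated within a set, which left 2 hashtag groups against 2 in the high set.

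Within the high set, 34 of 258 member tests were called, 32 of them lower, where 3.94% of all tests were called, 1.7% lower and 2.24% higher. *Pdcd1* in ILC2 was the pair of member and gate called in the most contrasts, lower in 6 of 6, where 1.64% of all tests in ILC2 were called lower. The 2 WT control groups had 456 and 476 CPM, the acute colitis groups 31.4 and 35.1, the chronic colitis groups 61.2 and 105, and the food allergy groups 44.3 and 32.2. In *App* NL-G-F mice the control groups had 257 and 504 CPM, acute colitis 65.2 and 15.4, chronic colitis 53.8 and 111, and food allergy 70.7 and 137. All 12 treated groups (15.4 to 137 CPM) lay below all 4 control groups (257 to 504 CPM). The share of all genes whose control and treated groups part in this way was not counted, here or below. A summed level cannot tell fewer cells with the transcript from less of it per cell. After thinning to 1000 UMIs, the share of high-set ILC2 with a *Pdcd1* UMI was 27.1% in WT control, 23.8% in the control of *App* NL-G-F mice and 1.92 to 9.09% in the treated libraries. *Pdcd1* fell by 3.67 on the log2 scale in WT acute colitis (SE 0.39, edgeR adjusted p = 7.88e-07), by 2.3 in chronic colitis (SE 0.33, edgeR adjusted p = 5.32e-05) and by 3.47 in food allergy (SE 0.39, edgeR adjusted p = 2.45e-06). In *App* NL-G-F mice it fell by 3.25 (SE 0.45), 2.13 (SE 0.36) and 1.79 (SE 0.36), with edgeR adjusted p = 2.04e-04, 0.00358 and 0.0186. The last 2 calls were lost without *App* NL-G-F control hashtag 7 (-1.51 and -1.17), that of chronic colitis also without its hashtag 6 (-1.72), and that of food allergy without its hashtag 4 (-1.4) or 5 (-2.38).

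In γδ T cells of the high set the 4 control groups had 731.9 to 1560 CPM of *Pdcd1* and the 12 treated groups 255.8 to 675.0 CPM, without overlap. The call was made in 5 of 6 contrasts (0.513% of all tests in this gate were called lower), with falls of 1.92, 2.11 and 2.05 on the log2 scale in WT acute colitis, chronic colitis and food allergy and of 1.53 and 1.80 in *App* NL-G-F acute and chronic colitis (edgeR adjusted p = 2.72e-04, 8.94e-05, 2.57e-04, 0.0334 and 0.0149). The WT calls held in each of 16 repeats with 1 hashtag group left out, and both *App* NL-G-F calls were lost in some of them. *Pdcd1* was also called lower in NK cells of WT acute (-1.88) and chronic colitis (-2.25), in CD8 T cells of WT acute (-2.25) and chronic colitis (-1.94), in CD4 T cells of WT chronic colitis (-1.69) and in myeloid cells of WT chronic colitis (-2.99). The CD4 T call was lost in 11 of 16 repeats with 1 hashtag group left out (-2.25 to -0.91), and the CD8 T calls in 2 and 5, among them without WT control hashtag 7 (-0.88 and -0.56). The myeloid call was lost without WT control hashtag 7 (-2.15) and WT chronic colitis hashtag 6 (-2.52), and the NK call of chronic colitis without the latter (-1.52). In myeloid cells of the high set *Pdcd1* was at 2.83 to 10.8 CPM in the control groups. The B cell reference had 0 to 18.6 CPM in the same set's control groups, so the myeloid level was within it.

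*Tnfrsf18* followed *Pdcd1* in ILC2. Its control groups in the high set had 844 and 1355 CPM (WT) and 619.2 and 1080 CPM (*App* NL-G-F), and the 12 treated groups 272.1 to 617.8 CPM. The groups did not overlap, though the lowest control and the highest treated group nearly met. It fell by 1.58, 1.33 and 1.74 on the log2 scale in WT acute colitis, chronic colitis and food allergy and by 1.07 in *App* NL-G-F chronic colitis (edgeR adjusted p = 1.68e-04 for the first and 0.0362 for the last). The 3 WT calls held in each of 16 repeats with 1 hashtag group left out, and that of *App* NL-G-F mice was lost in 9 (-1.43 to -0.56). *Icos*, the other costimulatory receptor of ILC2, was called lower there in WT acute colitis (-1.14) and food allergy (-1.38), and higher in CD4 T cells of the same mice (0.78 and 0.85). The 2 CD4 T calls are the only members called higher in the high set. These calls were less firm: with 1 hashtag group left out, the ILC2 calls were lost in 13 (-1.74 to -0.23) and 2 of 16 repeats and the CD4 T calls in 3 (0.42 to 1.12) and 14 (0.79 to 0.89).

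*Tigit* was called lower in NK cells in 4 of 6 contrasts of the high set, where 0.449% of all tests were. In the high set it was at 239.8 to 520.4 CPM in the 4 control groups and 82.9 to 276.3 CPM in the 12 treated groups, which overlap. It fell by 1.81, 1.17 and 1.0 on the log2 scale in WT acute colitis (edgeR adjusted p = 1.51e-08), chronic colitis and food allergy, and by 1.66 in *App* NL-G-F acute colitis. *Tigit* was called lower in CD8 T cells of WT acute colitis (-1.81, lost without WT control hashtag 7 at -0.93), in ILC2 of *App* NL-G-F chronic colitis (-4.86, from a level of 10.3 to 53.5 CPM in the control groups) and in myeloid cells of WT acute (-1.72) and chronic colitis (-2.50). In ILC2 *Tigit* passed the filter on low counts through the control groups, since treated groups reached at most 6.21 CPM. It could therefore hardly be called other than lower there. The ILC2 call was lost in 9 of 16 repeats with 1 hashtag group left out (-7.29 to -3.19) and the myeloid calls in 7 and 2. High-set myeloid control groups had 2.45 to 8.85 CPM of *Tigit*, within the 0 to 20.7 CPM of B cells. In NK cells the calls of WT food allergy and *App* NL-G-F acute colitis were each lost in 2. *Lag3* was called lower in myeloid cells of WT chronic colitis (-1.51). *Ctla4*, *Tnfrsf4*, *Cd28*, *Havcr2* and *Cd274* had no call in the high set.

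Genes of the related lists were called in both directions within the high set, at shares of 1.79 to 6.03% of a list's tests beside 3.94% of all tests. Of 360 tests of other receptors (5.56% called), 4 were called higher and 16 lower by edgeR. In ILC2 of WT mice these were *Tnfrsf9*, which encodes the costimulatory receptor 4-1BB (log2 -4.07, -3.24 and -2.18 in acute colitis, chronic colitis and food allergy), *Nt5e*, the ectoenzyme CD73 (-1.15, -0.87 and -1.19), and the inhibitory receptor *Klrg1*, which rose in acute colitis (1.09) and food allergy (1.16). Of 114 tests of regulatory T cell genes (5.26% called), 3 were called higher and 3 lower, all in ILC2: the transcription factor *Ikzf2* rose in each WT contrast (log2 1.79, 1.52 and 1.71), and the chemokine receptor *Ccr8* fell in WT chronic colitis (-0.91), WT food allergy (-0.98) and *App* NL-G-F acute colitis (-1.41). Of 432 tests of signalling genes 7 were called higher and 10 lower, the share over all tests, among them the phosphatase *Ptpn6*, which acts downstream of inhibitory receptors and rose in ILC2 in each WT contrast (1.19, 1.37 and 1.5). Of 168 tests of ligands 1 was called higher and 2 lower (1.79%), and of 348 tests of immediate-early genes 1 was called higher and 20 lower (6.03%).

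**Figure D4:**
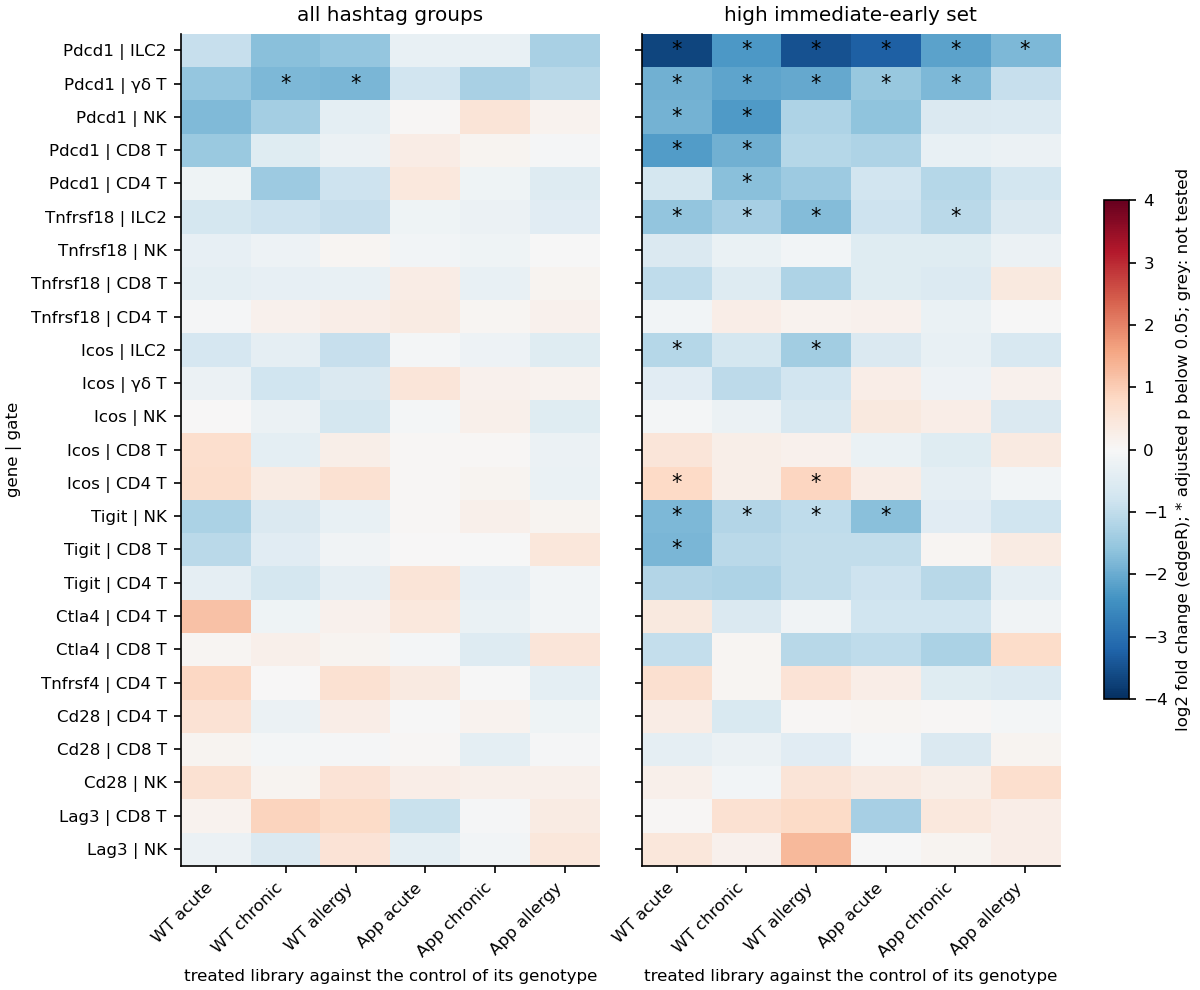
Colour gives the log2 fold change of a treated library against the control of its genotype (App stands for *App* NL-G-F) for 25 pairs of gene and gate. The panels show all hashtag groups (left) and the high immediate-early set (right). Stars mark an edgeR adjusted p below 0.05, and colour is at its limit beyond the ends of its scale. The left panel has 2 stars, both *Pdcd1* in γδ T cells, and the right panel has stars across the *Pdcd1* row of ILC2.

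Other measures of the ILC2 gate moved with the same contrast. In the high set the summed ILC2 markers were at 5496 to 10890 CPM in control and 2267 to 3426 CPM in treated groups, and the median depth was 1874 to 2210 UMIs in control and 2559 to 3516 in treated groups. The immediate-early genes were at 15360 to 23550 CPM in control ILC2 and 10930 to 17910 CPM in treated ILC2, and the B cell markers at 53.6 to 189.9 and 247.2 to 796.9 CPM. *Cd3e* was found in 1.82 to 3.10% of control and 1.11 to 5.00% of treated ILC2. Of the ILC2 markers, only *Il1rl1* and *Gata3* were looked at singly, and as shares of cells rather than CPM. These shares were not thinned, and the control cells were the shallower, so they cannot be set directly beside the summed list. What the other markers of the list did was not looked at. *Il1rl1* was found in 46.2 to 63.2% of control and 49.5 to 71.8% of treated ILC2 (medians 52.1% and 62.6%). *Gata3* was found in 70.6 to 81.5% and 66.1 to 89.0% (medians 74.3% and 80.3%), and both ranges overlap. In γδ T cells the γδ T markers were at 10170 to 18290 CPM in control and 7000 to 10730 CPM in treated groups, and the immediate-early genes at 4225 to 9371 and 3652 to 8803 CPM. In NK cells the NK markers were at 7962 to 9555 CPM in control and 7483 to 11200 CPM in treated groups, which overlap. In WT mice the median depth of high-set NK cells was 2388 and 2652 UMIs in control and 3013 to 4122 in treated groups, and their immediate-early genes were at 6089 and 6483 against 3699 to 5041 CPM, both without overlap. In *App* NL-G-F mice both measures overlapped. The part of these measures in the changes of the receptors was not tested. *Pdcd1* in B cells of the high set was at 0 to 18.6 CPM in control and 0 to 5.87 CPM in treated groups.

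The low set could be tested only for chronic colitis and food allergy of *App* NL-G-F mice, since the other treated libraries had too few low-set groups with at least 20 cells. The called members moved there in the opposite direction. Of 78 member tests, 3 were called by edgeR, all higher, where 0.269% of all tests were called and 0.13% were called higher. *Pdcd1* in ILC2 was at 192.6 and 162.0 CPM in control and 268.2 and 683.0 CPM in chronic colitis groups (log2 1.31, SE 0.29, edgeR adjusted p = 0.00877). The summed ILC2 markers of the same groups were at 2054 and 1998 CPM in control and 3184 and 3329 CPM in chronic colitis, and their part in the change was not tested. *Tigit* in NK cells was at 138.9 and 84.6 CPM in control, 235.8 and 302.3 CPM in chronic colitis and 275.1 and 242.5 CPM in food allergy groups (log2 1.11 in both, edgeR adjusted p = 0.0131 and 0.0122). In NK cells of the low set, all 7 treated groups (235.8 to 382.2 CPM) lay above all 4 control groups (84.6 to 195.8 CPM) for *Tigit*. These groups pool both genotypes and several treatments, not all of which could be tested. *Icos* in γδ T cells of the low set did not overlap either (128.2 to 129.4 CPM in 2 control and 162.2 to 343.4 CPM in 7 treated groups).

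**Figure D5:**
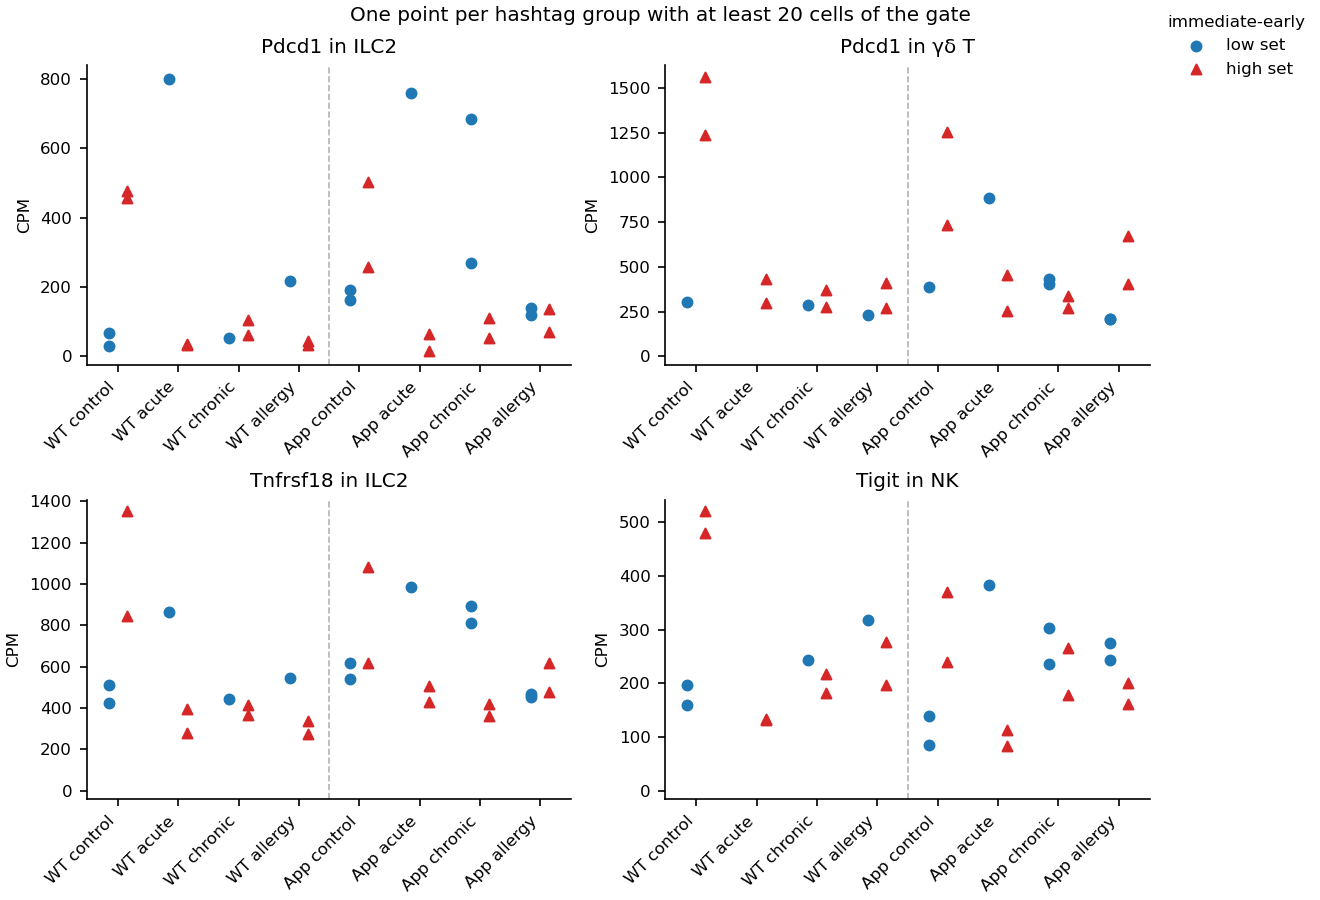
Each point is the CPM of 1 hashtag group with at least 20 cells of the gate, by library (App stands for *App* NL-G-F); blue circles are the low and red triangles the high immediate-early set. Red control points lie above the red treated points for *Pdcd1*, and blue control points below the blue treated points for *Tigit* in NK cells.

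The difference of the treatment effect between the sets was tested for both treatments, and 4 of 88 member tests were called, against 0.3% of all tests. In *App* NL-G-F mice, the effect of chronic colitis in the high set minus that in the low set was -3.42 on the log2 scale for *Pdcd1* in ILC2 (SE 0.56, edgeR adjusted p = 8.08e-04), -1.55 for *Tnfrsf18* in ILC2 (SE 0.35, edgeR adjusted p = 0.0282) and -1.57 for *Tigit* in NK cells (SE 0.33, edgeR adjusted p = 0.0344). That of food allergy was -1.91 for *Tigit* in NK cells (SE 0.32, edgeR adjusted p = 0.00377).

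The control libraries addressed whether *App* NL-G-F mice differ in these receptors without treatment. None of 43 member tests was called by edgeR and 0 by DESeq2, where 2.16% of all tests were; 2 had an unadjusted p below 0.05, *Tnfrsf4* in CD4 T cells (log2 0.94, adjusted p = 0.209) and *Icos* in γδ T cells (-0.73, adjusted p = 0.421). Within the low set, 1 of 39 member tests was called by edgeR, near the share of 2.05% over all genotype tests in this set. It was *Pdcd1* in ILC2, at 162.0 and 192.6 CPM in *App* NL-G-F control and 28.7 and 67.2 CPM in WT control. The difference was 1.97 on the log2 scale (SE 0.40, edgeR adjusted p = 8.60e-04). The ILC2 markers of the WT groups were at 1232 and 1206 CPM. The treatment effect did not differ between genotypes for any member by edgeR in 129 tests, of which 6 had an unadjusted p below 0.05, and 0.966% of all such tests were called. DESeq2 also called 0 of these.

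Across 56 profiles (7 gates in 8 libraries), genes whose log2(CPM + 1) followed a member most closely were named by Pearson's r among 11959 genes, as a description in which profiles share libraries and gates. *Icos* went with *Rora* (r = 0.963), *Camk4* (0.947) and the IL-7 receptor chain *Il7r* (0.943), and *Tnfrsf18* with *Inpp4b* (0.917), the PD-1 ligand *Pdcd1lg2* (0.909) and the ILC2 and helper T factor *Gata3* (0.894). *Cd28* went with *Cd2* (0.939) and *S1pr1* (0.937), *Tigit* with *Gimap7* (0.935) and *Sh2d1a* (0.931), and *Pdcd1* with *Zap70*, the kinase of the T cell receptor (0.923). *Ctla4* was followed by *Syt11* (0.927) and the folate receptor gene *Izumo1r* (0.917), which was also first for *Tnfrsf4* (0.893). *Havcr2* (0.779 with *Pmaip1*) and *Cd274* (0.808 with *Dcaf5*) had the loosest partners. Among the members, *Tigit* and *Cd28* (0.872), *Ctla4* and *Cd28* (0.856), *Ctla4* and *Tnfrsf4* (0.843) and *Pdcd1* and *Icos* (0.806) were most alike.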

How the data were processed

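Per the labels and the methods of the study, the authors aligned reads to mm10 with Cell Ranger 6.1.2 (the matrix headers name Cell Ranger 4) and deposited raw UMI counts for each gene in all barcodes, not normalized. Cells were called anew: barcodes past a cutoff of the order-of-magnitude kind, for 3000 expected cells, and others of at least 500 UMIs that differed from the ambient profile of barcodes ranked 45000 to 90000 at a false discovery rate of 0.01 over 1000 simulations. As in the study, cells with under 200 genes or over 5% mitochondrial UMIs were left out. Counts were scaled to 10000 per cell. Of 2000 variable genes, 24 that were members or genes of the pathway lists were kept out and 1976 were used, with 30 principal components, 20 neighbours and Leiden resolution 0.5 (scanpy 1.11.5, leidenalg 0.10.2, Python 3.11.15). Scrublet's automatic threshold marked 6 cells and none were removed; an added alternative left out the 2551 of highest score. A cell belonged to a hashtag where only that hashtag's count passed the lowest point between its background and positive modes, with a minimum of 50 counts: 43893 cells had 1 hashtag, 4759 several and 1435 none, and the last 2 kinds entered no test. Per library, total UMIs were 26988646 to 56307389.

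UMIs summed per hashtag group were tested with edgeR 4.0.16 (quasi-likelihood test, TMM, filterByExpr) in R 4.3.3, fitted over all genes with Benjamini-Hochberg adjustment within a contrast and a threshold of 0.05. Groups needed 20 cells of the gate. The Foxp3 comparison was meant to need 20 cells of each kind, which left 1 group, so 5 were used after this had been seen. The hashtag group was the block there, since both kinds of cell came from the same sample. DESeq2 1.42.0 was an alternative. The tests were tried on simulated data. All 10 members were named in every gate; of the lists, the genes that passed the test were named. Members, lists and tests were chosen with earlier results of these data known. Levels have exact Poisson and shares exact binomial 95% intervals. Promoters were read from RefSeq.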

Additional observations from a re-analysis of the deposited data

Results flagged for a closer look

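In 18 sets of 4 hashtag groups, each sample's gap to its neighbour was compared with the range of its group, and 2 stood apart; chance gives about 1 in 20 groups. *Tnfrsf18* in ILC2 reached 1080.0 CPM in hashtag 7 of *App* NL-G-F control, the highest of 4 groups and far from the others. In ILC2 of *App* NL-G-F food allergy, hashtag 5 was at 617.8 CPM and stood above the other 3 groups. Hashtag 7 of *App* NL-G-F control was also the group without which the high-set calls of *Pdcd1* in ILC2 were lost, for chronic colitis as for food allergy of that genotype.

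Effects under the same contrast differed between the immediate-early sets, by a test of the difference itself. For *App* NL-G-F chronic colitis the effect in the high set minus that in the low set was -3.42 on the log2 scale for *Pdcd1* in ILC2, -1.55 for *Tnfrsf18* in ILC2 and -1.57 for *Tigit* in NK cells, and for food allergy it was -1.91 for *Tigit* in NK cells. The sets were found in the data and each arm held 2 hashtag groups. Their cause was not tested.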

How the results depend on the processing

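The depth and the number of cells set the limits: Foxp3-positive cells numbered 253 over 22 groups, each contrast within a set rested on 2 hashtag groups against 2, and each condition was 1 library. Members called across the Foxp3 split numbered 6 under DESeq2, other size factors and the libraries as units, 6 to 6 with 1 hashtag group left out, and 3 in thinned cells and 3 with gates set from marker UMIs of each cell. The hashtag group was the replicate block, and with no replicate block 5 were called. Over the treatment contrasts, the 2 calls became 9 with per-cell gates, 30 with no filter on low counts and 34 within the high set (added after seeing the data), and ranged from 0 (without WT control hashtag 6 or 7) to 4 with 1 hashtag group left out. For genotype the 0 calls became 1 with per-cell gates, 1 within the low set and 2 with no filter, and 0 to 1 with 1 group left out. For the difference between genotypes the 0 calls became 6 with no filter and stayed at 0 to 0 with 1 group left out. The 34 calls within the high set became 73 with no filter and 24 to 40 with 1 group left out, and were 23 under DESeq2, 25 with per-cell gates and 30 with at least 50 cells; of the 34, 22, 21 and 30 were kept. After thinning, the share of cells with 5 or more members was 1.19% in CD4 T cells, 8.21% in Foxp3-positive T cells and 0.263% in CD8 T cells. Between the sets, effects of chronic colitis in ILC2 of *App* NL-G-F mice changed sign: *Pdcd1* had -2.13 in the high and 1.31 in the low set, both called, and *Tnfrsf18* -1.07, called, and 0.49, not called. *Cd28* across the Foxp3 split, not called, had -0.35 with no filter and -0.46 with per-cell gates. *Tigit* in NK cells was below 0 in every high-set contrast (log2 -1.81 to -0.45). In both low-set contrasts of *App* NL-G-F mice it was at 1.11, called. No other member test across the Foxp3 split, called in the high set or of *Pdcd1* in γδ T cells changed sign under the alternatives run. Of the levels by gate, 428 of 490 moved by less than 1 SD under an alternative. Gates set from marker UMIs of each cell changed them most, with 30 levels moved by 1 SD or more and 40 not. The causes of these changes were not tested.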

Other observations

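The ligands of the receptors were concentrated in dendritic cells, described over all libraries pooled. In migratory DC, *Cd86*, which CD28 and CTLA-4 bind, was at 143 CPM and *Cd80* at 83.9 CPM, *Icosl*, the ligand of ICOS, at 142 CPM, *Pdcd1lg2*, a ligand of PD-1, at 60.1 CPM and *Pvr*, a ligand of TIGIT, at 56.0 CPM. *Cd86* was also at 119.7 CPM in conventional DC of type 1 and 118.2 CPM in macrophages. *Tnfsf9*, the ligand of 4-1BB, was at 305.7 CPM in conventional DC of type 2 and 18.3 CPM in plasmacytoid DC, as the finer clustering divides them. Outside the myeloid cells, *Pdcd1lg2* was at 38.8 CPM in ILC2.

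Some low-set hashtag groups of acute colitis could not be tested, being the only low-set group of their library with at least 20 ILC2. *Pdcd1* in their ILC2 was at 800.2 CPM in the WT group (21 cells) and 758.2 CPM in the *App* NL-G-F group (73 cells), against 15.4 to 65.2 CPM in the 4 high-set groups of acute colitis. The summed ILC2 markers of these groups were at 8182 and 14170 CPM, where the low-set control groups had 1206 to 2054 CPM.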
